A study of Mus musculus with 4 samples.

Results

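The myosin light chain genes of the mouse were followed in cardiac fibroblasts that were being reprogrammed towards cardiomyocytes. The 10 genes were Myl1, Myl2, Myl3, Myl4, Myl6, Myl7, Myl9, Myl12a, Myl12b and Mylpf, taken by gene symbol from a deposited table of 56691 genes, with 1 row for each. Of the 10, 9 passed the filter on low counts that the test across all genes used, and Myl3 did not. The cells were primary cardiac fibroblasts of wild-type (WT) genotype from hearts of mice at postnatal days 1 to 3. All of them received the 3 transcription factors Mef2c, Gata4 and Tbx5 (MGT), and all were collected at day 7 of reprogramming, when they are called induced cardiomyocyte-like cells. In the MGT+shNT group (2 libraries) the factors came with a non-targeting short hairpin RNA, and in the MGT+shScd1 group (2 libraries) with a hairpin against Scd1, the gene of the stearoyl-CoA desaturase that makes monounsaturated fatty acids. The study asked which expression changes accompany Scd1 knockdown during reprogramming. The labels do not state whether the 2 libraries of a group stem from different cultures or mice, so p-values rest on a spread between libraries that may be technical.

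Each myosin heavy chain carries 1 essential and 1 regulatory light chain on its neck, the lever arm that swings during the power stroke. Essential chains stiffen that lever, and regulatory chains are phosphorylated by myosin light chain kinases, which switches smooth muscle and non-muscle myosin on and tunes force in striated muscle. Isoforms follow the muscle type: Myl4 and Myl7 are the essential and regulatory chains of the atrium and of the early embryonic heart, Myl3 and Myl2 those of the ventricle and of slow skeletal muscle, and Myl1 and Mylpf those of fast skeletal muscle. Myl6 is the essential chain of smooth muscle and non-muscle cells, where Myl9, Myl12a and Myl12b are regulatory chains.

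Total counts were 20894972 and 15135227 in the MGT+shNT libraries and 19104319 and 18679918 in the MGT+shScd1 libraries. Levels are given as CPM, counts scaled to a common library size after TMM scaling (a factor that corrects for library composition), for replicates 1 and 2 in that order. Scd1 had 84.4 and 63.5 CPM in MGT+shNT against 6.64 and 8.04 CPM in MGT+shScd1 and fell by 3.34 on the log2 scale (SE 0.14), so the target was lower in both libraries labelled with its hairpin. MGT+shNT replicate 2 stood apart in that the ribosomal RNA gene Rn18s-rs5 took 3.32% of its counts, against 0.129% to 0.199% in the other 3 libraries. Markers of the labelled cell type were detected: the 10 fibroblast markers summed to 15792 to 17101 CPM in MGT+shNT and 11644 to 11802 CPM in MGT+shScd1. Most of each sum came from the collagen genes of that list, so the sums mainly follow those genes. The 10 light chain genes took 0.421% and 0.45% of all counts in MGT+shNT against 0.446% and 0.416% in MGT+shScd1, ranges that overlap.

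With Scd1 knockdown the atrial chains Myl7 and Myl4 fell, the fast skeletal chains Mylpf and Myl1 rose, and the smooth muscle and non-muscle chains Myl6 and Myl12b rose by smaller amounts. The ventricular chain Myl2 was also called lower, but it passed the filter on low counts through the MGT+shNT libraries alone, the group in which it was high. Myl9 and Myl12a did not pass the test. Of the 9 genes tested, 4 rose and 3 fell at an adjusted p below 0.05, with Myl2 counted among the falls. Every adjusted p here comes from the quasi-likelihood test of edgeR across 16234 genes, adjusted by Benjamini-Hochberg over all of them. Over all genes tested, 29.3% were called, 13.1% as higher and 16.3% as lower. These counts depended on single libraries. Without MGT+shScd1 replicate 2 the light chains gave 3 rises and 0 falls by edgeR, with 3 lower at an unadjusted p below 0.05. Without MGT+shScd1 replicate 1 they gave 2 rises and 3 falls, and without MGT+shNT replicate 2 they gave 6 rises and 3 falls. DESeq2 and limma-voom on all 4 libraries gave 4 rises and 3 falls. Over all genes, the calls went from 4763 of 16234 to 2217 of 17167 without MGT+shScd1 replicate 1 and to 2649 of 17301 without replicate 2. The same 7 light chains, Myl2 among them, had no overlap between the groups in CPM, as did 64.3% of all genes tested (32% higher, 32.3% lower). The median log2 fold change of the 9 light chains was 0.13, against 0.0001 over all genes tested, and the median absolute change was 0.31 against 0.24. The plot of FPKM by library shows how far apart the levels of the 10 genes lay, and the plot of fold changes shows how each moved when 1 library was left out.

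**Figure D1:**
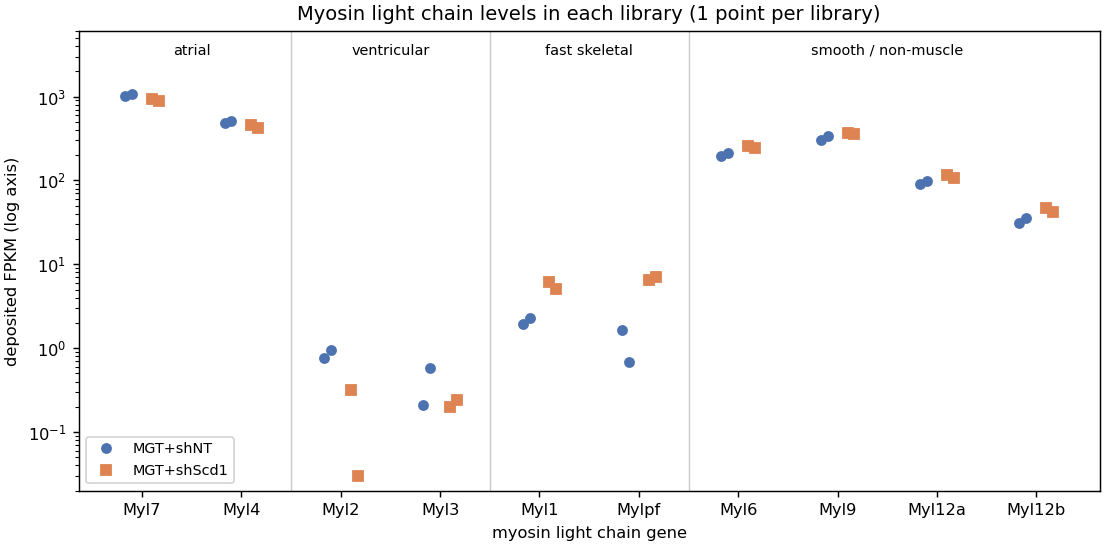
Deposited FPKM (counts per kilobase of exon, scaled to the library's total count, log axis) of the 10 light chain genes, 1 point per library, circles for MGT+shNT and squares for MGT+shScd1, grouped by the muscle type each chain is known for. The atrial chain Myl7 lies near 1000 FPKM in all 4 libraries, and both ventricular chains lie below 1 FPKM.

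**Figure D2:**
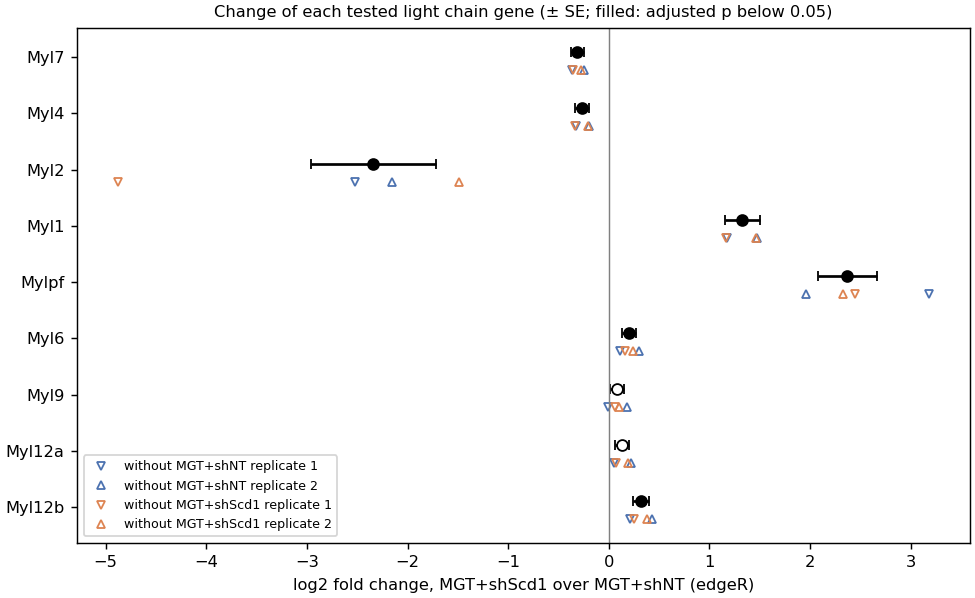
Log2 fold change of the 9 tested light chain genes, MGT+shScd1 over MGT+shNT, with its standard error (black, filled where the adjusted p is below 0.05) and, in open triangles below it, the value with each library left out in turn. Myl2 ranges from -4.88 to -1.49 and Mylpf from 1.96 to 3.18, and both keep their direction, while Myl9 lies on both sides of 0.

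By FPKM, the deposited unit that divides counts by gene length, the order in MGT+shNT was Myl7 (1054 ± 36.2, SD, n = 2), Myl4 (494 ± 18.8), Myl9 (319 ± 22.3), Myl6 (206 ± 13.5), Myl12a (94.7 ± 5.44) and Myl12b (33.3 ± 2.69). Far below these came Myl1, Mylpf, Myl2 and Myl3, at 2.12, 1.18, 0.855 and 0.396 FPKM. The order in MGT+shScd1 was the same for the first 6 genes, with Myl7 at 907 ± 35.3 and Myl4 at 439 ± 26.1 FPKM, after which Mylpf stood above Myl1 and Myl3 above Myl2. Among neighbours in these orders, the libraries of Mylpf and Myl2 overlapped in MGT+shNT, as did those of Myl2 and Myl3 in MGT+shScd1. Several places in this order depended on the length used. The table gives Myl4 an exonic length of 4637 bases and Myl6 one of 3187 bases, which sum all annotated exons, whereas their transcripts with a consensus coding sequence (CCDS) in GENCODE M21 average 907 and 665 bases. Myl7 has 590 bases by both. On the CCDS lengths, an alternative chosen after seeing the data, Myl4 came first in both groups (2525 and 2244 on the same scale as FPKM). Myl7 (1054 and 907) and Myl6 (985 and 1212) followed and changed places between the groups by their means. In MGT+shNT, however, the libraries of Myl7 (1028 and 1079) and Myl6 (940 and 1031) overlapped. Among the low genes, Myl1 (12.4) then stood above Mylpf (10.2) in MGT+shScd1, and Myl2 (2.15) above Mylpf (1.76) in MGT+shNT, the reverse of their order by FPKM. The MGT+shNT libraries of Myl2 and Mylpf overlapped on these lengths too.

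The atrial chains were the most abundant light chains of the striated type and both were lower with Scd1 knockdown. Myl7 (ENSMUSG00000020469, chr11:5896637-5898782 in GRCm38, minus strand) had 615 and 674 CPM in MGT+shNT and 532 and 505 CPM in MGT+shScd1. Both knockdown libraries lay below both controls, and Myl7 fell by 0.31 on the log2 scale (SE 0.07, adjusted p = 0.00264). Myl4 (ENSMUSG00000061086, chr11:104550663-104595753, plus strand) had 2259 and 2492 CPM in MGT+shNT and 2053 and 1891 CPM in MGT+shScd1. Here too the groups did not overlap, and Myl4 fell by 0.27 (SE 0.07, adjusted p = 0.00929). Both calls were lost without MGT+shScd1 replicate 2, a fit that leaves 1 library in that group. The log2 fold change was then -0.28 for Myl7 and -0.21 for Myl4, against -0.36 and -0.33 without MGT+shScd1 replicate 1. On the log2(FPKM + 1) scale, which is scaled to total counts without TMM factors, the values were -0.22 (adjusted p = 0.145) and -0.17 (adjusted p = 0.18).

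The pair of atrial chains kept a nearly fixed proportion. The log2 ratio of Myl4 to Myl7 counts was 1.88 and 1.89 in the MGT+shNT libraries and 1.95 and 1.91 in the MGT+shScd1 libraries. These ratios need no scaling between libraries, and they span less than the fall of either gene. In bulk RNA, fewer cells with an atrial programme and less atrial RNA per cell cannot be told apart. Markers of other cells moved beside these genes: 7 of 10 fibroblast markers and 7 of 10 macrophage markers fell and 1 of each rose by edgeR, whereas the DESeq2 Wald test called 5 macrophage markers lower and 0 higher. The macrophage sum was 643 to 710 CPM in MGT+shNT and 174 to 176 CPM in MGT+shScd1. The 8 cardiomyocyte markers summed to 4116 to 4688 CPM in MGT+shNT and 4171 to 4319 CPM in MGT+shScd1. Of them, 3 rose and 2 fell by edgeR, and 3 rose and 1 fell by the DESeq2 Wald test. Most of each sum came from a single marker that fell, so the sums do not show rises such as that of Myh6. The other marker that fell by edgeR passed the filter on low counts through the MGT+shNT libraries alone. The part of these marker changes in the falls of Myl7 and Myl4 was not tested.

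Other genes of atrial identity, a list of 10 with 9 tested, did not move as one. The atrial natriuretic peptide gene Nppa fell by 1.35 and the atrial potassium channel gene Kcnj5 fell by 0.99, while Sln, which encodes the atrial calcium pump inhibitor sarcolipin, rose by 0.30 (adjusted p = 0.0206). The rise of Sln did not pass without MGT+shNT replicate 1 (adjusted p = 0.147) or without MGT+shScd1 replicate 1 (0.203) or 2 (0.1). The other 6 did not pass, and the median log2 fold change of the 9 was -0.15.

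The promoter of Myl7 is shown because it carries motifs of cardiac and muscle regulators close to the start site, and that of the ventricular gene Myl3 because it carries the same pair of motifs although Myl3 was hardly detected. Both are the 250 bases before the RefSeq start (GRCm38.p6), chr11:5898783-5899032 on the minus strand and chr9:110763428-110763677 on the plus strand. Capitals mark matches to the CArG box of serum response factor, to GATAA (the GATA factor motif) and to CANNTG (the E-box).
Myl7: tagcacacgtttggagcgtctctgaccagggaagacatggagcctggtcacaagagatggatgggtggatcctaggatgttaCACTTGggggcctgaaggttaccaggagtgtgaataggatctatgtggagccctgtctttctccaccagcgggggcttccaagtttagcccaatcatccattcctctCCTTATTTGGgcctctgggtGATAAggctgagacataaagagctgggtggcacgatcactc
Myl3: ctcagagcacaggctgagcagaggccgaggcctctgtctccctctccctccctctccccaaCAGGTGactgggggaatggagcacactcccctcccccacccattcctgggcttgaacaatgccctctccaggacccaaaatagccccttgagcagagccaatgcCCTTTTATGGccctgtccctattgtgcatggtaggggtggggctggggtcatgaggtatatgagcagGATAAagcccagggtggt

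With the start site as base 0, the CArG box of Myl7 lay at -61 to -52, its GATAA at -41 to -37 and its E-box at -168 to -163. In Myl3 the CArG box lay at -85 to -76, GATAA at -18 to -14 and the E-box at -189 to -184. Both strands were searched, and no matches overlapped. Of 32851 mouse promoter windows of 250 bases before to 50 after a start, 1.63% held a CArG box, 25.4% a GATAA and 72.3% an E-box. The MEF2 motif, found in 3.19% of windows, and the T-box motif GGTGTNA, found in 10.2%, had no match in either window. RefSeq gave 12 windows for the 10 genes, and CArG boxes were also found in the Myl9 window and in 1 of the 2 windows of Myl6. The windows of Myl4 and Myl2 hold other starts, upstream of those genes' coding exons, and are not shown. A match of letters describes the sequence and does not show that a factor binds there.

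The ventricular chains had few counts in any library, and Myl2 was called lower with Scd1 knockdown. Myl2 (ENSMUSG00000013936, chr5:122100951-122113472, plus strand), the ventricular regulatory chain, had 31 and 28 counts in the control libraries and 12 and 1 in the knockdown libraries. These are 1.503 and 1.96 CPM against 0.608 and 0.0519 CPM, so the groups did not overlap, and the fall was 2.34 on the log2 scale (SE 0.62, adjusted p = 0.0122). Myl2 passed the filter on low counts through the MGT+shNT libraries alone. Its fold change, adjusted p and lack of overlap are thus a description and no support for a fall. The call was lost without MGT+shScd1 replicate 2, a fit that leaves 1 library in that group. The log2 fold change of Myl2 was then -1.49, against -4.88 without MGT+shScd1 replicate 1. The essential partner Myl3 (ENSMUSG00000059741, chr9:110741861-110769798, plus strand) had 9 and 18 counts in the control libraries and 8 and 9 in the knockdown libraries. The groups overlapped, and with no filter its log2 fold change was -0.89 (SE 0.60, adjusted p = 0.434). Each of these genes overlaps another on the opposite strand, Ccdc63 for Myl2 and Pth1r for Myl3. Ccdc63 had 0 to 7 counts in the 4 libraries and Pth1r 177 to 254, and the strand setting of the counting is not known here. Of a list of 8 genes related to the ventricle, not all of them markers of its muscle cells, 5 were tested. The growth factor gene Nrg1 rose by 1.03 and the beta myosin heavy chain Myh7 by 0.61, and 3 did not pass. The Myh7 call was lost without MGT+shNT replicate 1 (adjusted p = 0.0826) and without MGT+shScd1 replicate 1 (0.0733) or 2 (0.125).

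The fast skeletal chains showed the steepest rises of the family, from low levels. Mylpf (ENSMUSG00000030672, chr7:127208890-127214298, plus strand), the fast skeletal regulatory chain, had 37 and 11 counts with the control hairpin and 132 and 141 with the Scd1 hairpin, or 1.79 and 0.77 CPM against 6.69 and 7.32 CPM. Both knockdown libraries stood well above both controls, which differed between themselves more than the knockdown libraries did. Mylpf rose by 2.37 on the log2 scale, or 5.17-fold (SE 0.30, adjusted p = 5.26e-05). Its essential partner Myl1 (ENSMUSG00000061816, chr1:66924295-66945404, minus strand) had 84 and 72 counts with the control hairpin and 246 and 196 with the Scd1 hairpin, or 4.07 and 5.04 CPM against 12.5 and 10.2 CPM. The groups did not overlap, and Myl1 rose by 1.33, or 2.51-fold (SE 0.18, adjusted p = 9.74e-05). Both calls held with each library left out in turn, with log2 fold changes of 1.96 to 3.18 for Mylpf and 1.17 to 1.47 for Myl1.

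A processed copy of Myl1 carries part of its sequence. Of the 2019 windows of 150 bases along Myl1 transcripts, 0.892% also occur in this copy, Mylf-ps. It had 26 and 18 counts in the control libraries, 68 and 62 in the knockdown libraries, and rose by 1.40 (adjusted p = 0.00338). How reads with several mapping places were counted is not known here, so the split of reads between Myl1 and Mylf-ps is uncertain. No window of Mylpf, Myl2, Myl3, Myl4, Myl7 or Myl9 occurred in another gene.

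Defining genes of skeletal muscle cells were at or near 0. Myod1 and Myf6 had 0 counts in all 4 libraries, Myf5 and Pax7 had at most 3 counts in any library, and Myog had 0 and 0 counts in the control libraries against 3 and 7 in the knockdown libraries. The 13 skeletal muscle markers summed to 49.6 and 53.5 CPM in MGT+shNT and 63.0 and 65.4 CPM in MGT+shScd1. Of the 4 that passed the filter, the fast myosin heavy chains Myh2 (1.48) and Myh1 (0.45) rose, and the other 2, Acta1 (-0.40, adjusted p = 0.167) and Tnnt3 (-0.13, adjusted p = 0.593), did not pass. The part of other skeletal muscle genes in the rises of Mylpf and Myl1 was not tested.

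The promoter of Mylpf is shown beside that of Myl7 for contrast, since it held an E-box, the motif of the skeletal muscle factors of the MyoD family among others, and none of the other 4 motifs searched. The window is chr7:127211358-127211607 on the plus strand (RefSeq, GRCm38.p6), with the E-box at -51 to -46 in capitals. That of Myl1 likewise held an E-box alone, at -224 to -219. This was not particular to the fast skeletal genes. The windows of Myl12a and Myl12b, a window of Myl2 and a window of Myl6 also held E-boxes alone. Of all mouse promoter windows, 72.3% held an E-box.
Mylpf: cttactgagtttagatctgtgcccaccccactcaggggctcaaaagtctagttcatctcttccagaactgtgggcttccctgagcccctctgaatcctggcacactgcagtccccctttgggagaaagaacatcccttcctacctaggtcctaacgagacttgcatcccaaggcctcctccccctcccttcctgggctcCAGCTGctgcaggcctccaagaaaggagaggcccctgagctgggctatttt

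Of the 4 smooth muscle and non-muscle chains, Myl6 and Myl12b rose by small amounts and Myl9 and Myl12a did not pass. Myl6 (ENSMUSG00000090841, chr10:128490860-128494145, minus strand), the essential chain of these myosins, had 633 and 726 CPM in MGT+shNT and 800 and 761 CPM in MGT+shScd1. The knockdown libraries lay above the controls, by little more than the controls differed from each other, and Myl6 rose by 0.20 (SE 0.07, adjusted p = 0.0496). That call was lost without MGT+shNT replicate 1 (log2 fold change 0.11, adjusted p = 0.145) and without MGT+shScd1 replicate 1 (0.16, adjusted p = 0.364) or 2 (0.24, adjusted p = 0.142). Of Myl6 windows, 1.43% occurred in the copies Gm10080, Gm5526 and Gm8894, which had 2 to 23 counts in any library. Another essential chain of these cells, Myl6b, had 2.72 and 2.59 CPM in MGT+shNT and 2.33 and 3.37 CPM in MGT+shScd1 and did not pass (log2 fold change 0.10, adjusted p = 0.835). Myl10, a regulatory chain, had 0 counts in all 4 libraries.

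Among the regulatory chains of this type, Myl9 (ENSMUSG00000067818, chr2:156775420-156781658, plus strand), the smooth muscle form, had 357 and 412 CPM in MGT+shNT and 412 and 401 CPM in MGT+shScd1. The groups overlapped, and the log2 fold change of 0.08 (SE 0.07, adjusted p = 0.436) did not pass. Its value depended on the control library used: it was -0.01 without MGT+shNT replicate 1 and 0.18 without replicate 2, each with 1 control library left. The reason for this difference was not tested. The non-muscle chain Myl12a (ENSMUSG00000024048, chr17:70993656-71002878, minus strand) had 309 and 351 CPM in MGT+shNT and 376 and 346 CPM in MGT+shScd1. The groups overlapped here too, and the log2 fold change was 0.13 (SE 0.07, adjusted p = 0.191), or 0.22 (adjusted p = 0.00285) without MGT+shNT replicate 2. Its neighbour Myl12b (ENSMUSG00000034868, chr17:70973133-70990890, minus strand) had 88.2 and 103 CPM in MGT+shNT and 124 and 114 CPM in MGT+shScd1. The groups did not overlap, and Myl12b rose by 0.32 (SE 0.08, adjusted p = 0.00736), a call lost without MGT+shScd1 replicate 1 (0.26, adjusted p = 0.158).

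The start of the Myl9 gene is shown for its CArG box, a motif of many smooth muscle genes, in capitals at -161 to -152. The window is chr2:156775214-156775463 on the plus strand (RefSeq, GRCm38.p6), and the remaining motifs had no match before the start.
Myl9: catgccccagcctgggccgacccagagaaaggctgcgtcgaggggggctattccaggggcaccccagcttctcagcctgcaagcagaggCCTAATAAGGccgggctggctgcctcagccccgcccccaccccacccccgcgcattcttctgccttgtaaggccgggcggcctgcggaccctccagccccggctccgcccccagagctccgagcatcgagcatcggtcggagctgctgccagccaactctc

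Serum response factor, which binds this box, and its coactivators were measured as a list of 4 genes (Srf, Mrtfa, Mrtfb and Myocd). By edgeR 0 of the 4 passed, by an unadjusted p below 0.05 0 did, and by DESeq2 and limma-voom 0 did. Their log2 fold changes lay between -0.08 (Mrtfa) and 0.29 (Myocd), genes named with their values in view. The 9 smooth muscle markers summed to 3434 and 4023 CPM in MGT+shNT and 4436 and 4224 CPM in MGT+shScd1. Of these 9, Cnn1 (0.78) and Des (0.68) rose, Myh11 (-0.44) and Smtn (-0.35) fell and 5 did not pass. Their part in the values of Myl6, Myl9 and Myl12b was not tested.

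Counts of Myl12a and Myl12b are uncertain, since both share stretches with a further gene model, described below. Both genes are near-identical copies that lie side by side. Their coding sequences of 516 bases each share 498 bases (96.5%), and Myl9 shares 85.7% with Myl12a. The first 120 coding bases of the 3 genes, from GENCODE M21, are shown to let the degree of likeness be seen. Capitals mark bases that differ from Myl12a, 5 in Myl12b and 17 in Myl9.
Myl12a: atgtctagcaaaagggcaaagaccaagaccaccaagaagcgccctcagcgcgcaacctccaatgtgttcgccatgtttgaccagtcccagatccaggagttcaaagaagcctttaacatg
Myl12b: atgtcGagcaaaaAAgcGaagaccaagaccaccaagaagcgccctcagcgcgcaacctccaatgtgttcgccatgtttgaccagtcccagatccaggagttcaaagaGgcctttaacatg
Myl9: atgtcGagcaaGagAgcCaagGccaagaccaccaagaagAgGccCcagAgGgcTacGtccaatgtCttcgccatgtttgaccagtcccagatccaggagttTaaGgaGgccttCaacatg

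A further gene model runs from Myl12a into Myl12b on the same strand. It is named Gm49909 in the deposited table and Myl12b in GENCODE M21 (ENSMUSG00000117098), and 22.6% of the 150-base windows of Myl12b occur in it. Of Myl12a windows, 12.8% occur in it or in Myom1 on the opposite strand. No 150-base window of Myl12b occurs in Myl12a itself. Gm49909 had 2263 and 1835 counts in the control libraries and 2900 and 2610 in the knockdown libraries, more than the 1820, 1478, 2452 and 2203 counts of Myl12b itself. It rose by 0.25 (SE 0.08, adjusted p = 0.0254). Myl12b and Gm49909 together came to 198 and 232 CPM in MGT+shNT and 271 and 250 CPM in MGT+shScd1, again without overlap. The coding sequences of the other members are less alike. Myl3 and Myl4 share 77.0% of aligned bases, Myl2 and Mylpf 70.3%, and Myl2 and Myl7 64.5%.

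The change within the family can also be expressed as isoform shares, the part of each gene in the summed counts per kilobase of its class, which need no scaling between libraries. Each share was tested by an exact permutation test over the 4 libraries, two-sided, whose smallest possible p with 2 against 2 is 0.333, so none of the 15 shares could pass. Striated muscle chains made up 70.9% and 69.9% of all light chains in MGT+shNT against 64.0% and 63.7% in MGT+shScd1, a difference of -6.57 percentage points (exact p = 0.333). Among essential chains, Myl4 held 70.8% and 69.9% in MGT+shNT against 63.2% and 62.6% in MGT+shScd1, and Myl6 held 28.9% and 29.7% against 35.9% and 36.6%. The groups did not overlap in either share, and the difference of -7.47 points in Myl4 stood beside one of 6.99 points in Myl6. Among regulatory chains, Myl7 held 70.6% and 69.6% in MGT+shNT against 63.5% and 63.3% in MGT+shScd1. Myl9 held 20.8% and 21.6% against 25.0% and 25.5%, although its own level did not pass the test. The stacked bars of these shares show the essential and regulatory classes side by side.

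**Figure D3:**
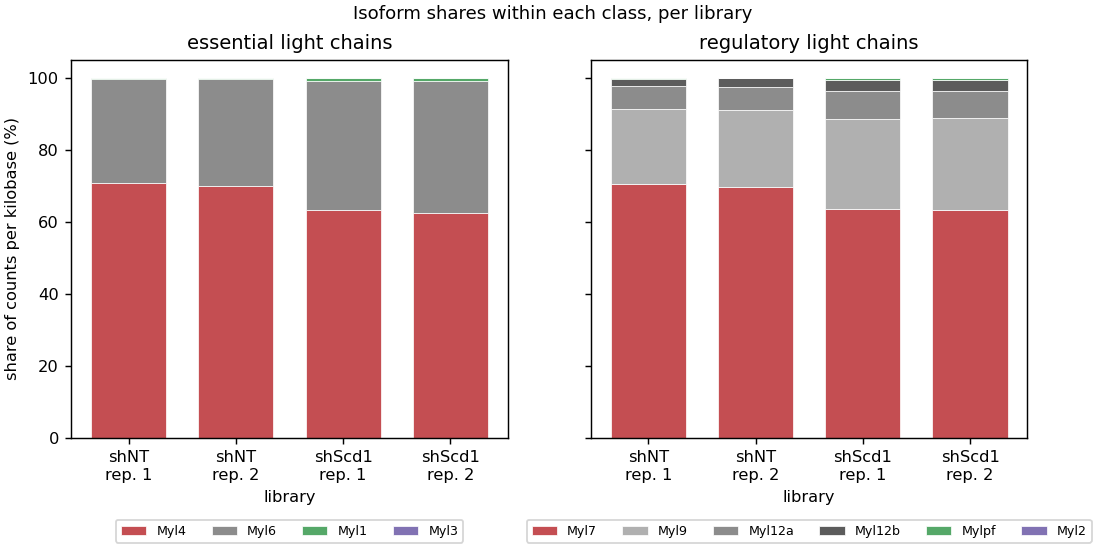
Share of each light chain in the counts per kilobase of its class (%), 1 bar per library, essential chains on the left and regulatory chains on the right. By exonic length, the atrial chains (red) hold 69.6% to 70.8% of each class in the MGT+shNT libraries and 62.6% to 63.5% in the MGT+shScd1 libraries. The smooth muscle and non-muscle chains (greys) hold most of the rest. These levels depend on the length used.

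Within the striated chains the atrial pair held 99.7% and 99.7% in MGT+shNT against 99.1% and 99.1% in MGT+shScd1. The fast skeletal pair held 0.238% and 0.187% in MGT+shNT against 0.906% and 0.925% in MGT+shScd1, a difference of 0.70 percentage points. The ventricular pair held 0.0642% and 0.0962% against 0.0376% and 0.02%. Thus the rises of Mylpf and Myl1, the steepest in fold, concerned under 1% of striated light chain RNA. The log2 ratio of Myl12a to Myl12b counts was 1.81 and 1.76 in MGT+shNT against 1.60 and 1.60 in MGT+shScd1, so Myl12b took a larger part of that pair in both knockdown libraries. The size of these differences depended on the gene length, though not their direction, and so did the levels of the shares. In MGT+shNT, Myl7 held a mean of 44.2% of regulatory chains by plain counts and 60.5% by CCDS length. Myl4 held 77.6% and 71.8% of essential chains there. With the share of plain counts the Myl4 difference was -6.31 points in place of -7.47, and with CCDS lengths the Myl7 difference was -7.64 points in place of -6.72.

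The genes that act on light chains moved in both directions, as the plot of partner genes shows. Of 10 kinases known to phosphorylate regulatory chains or to inhibit their phosphatase, 2 rose, 3 fell and 5 did not pass, with a median log2 fold change of -0.24. Mylk, the smooth muscle and non-muscle light chain kinase, had 200 and 239 CPM in MGT+shNT and 138 and 148 CPM in MGT+shScd1 and fell by 0.61 (SE 0.08, adjusted p = 6.62e-05). Mylk4, a kinase related to the cardiac and skeletal forms, had 37 and 23 counts in the control libraries, 101 and 109 in the knockdown libraries, and rose by 1.65 (SE 0.25, adjusted p = 0.000251). Dapk3 rose by 0.29 (adjusted p = 0.0206), a call lost without MGT+shScd1 replicate 1 (adjusted p = 0.115) or 2 (0.16) and by the DESeq2 Wald test with all libraries (0.0972). The cardiac light chain kinase Mylk3, chosen after its value was seen, had 5.14 and 5.11 CPM in MGT+shNT and 3.495 and 4.72 CPM in MGT+shScd1 and did not pass (log2 fold change -0.32, adjusted p = 0.31).

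**Figure D4:**
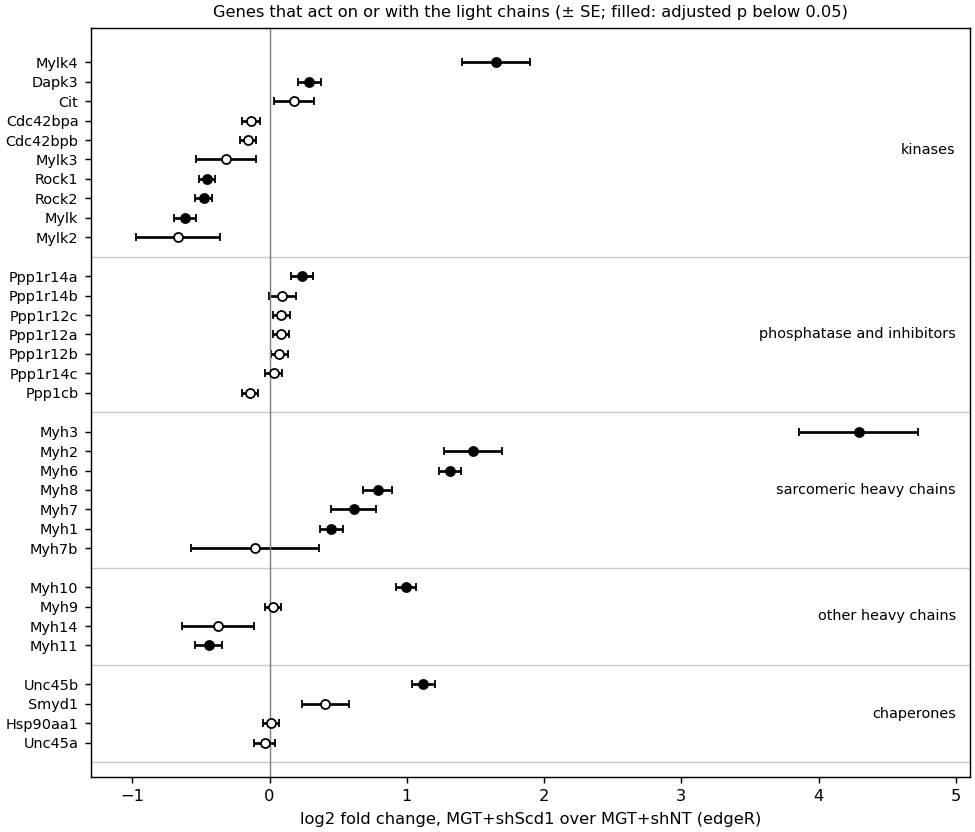
Log2 fold change (MGT+shScd1 over MGT+shNT) with its standard error for the tested genes of 5 lists, filled where the adjusted p is below 0.05. Sarcomeric heavy chains lie to the right of 0 except Myh7b. The phosphatase genes lie from -0.14 (Ppp1cb) to 0.24 (Ppp1r14a, filled), and kinases lie on both sides of 0.

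Of 7 genes of myosin light chain phosphatase and its inhibitors, Ppp1r14a, which encodes the inhibitor CPI-17, rose by 0.24 (adjusted p = 0.0423) and 6 did not pass. The median was 0.08. The Ppp1r14a call was lost without MGT+shNT replicate 1 (adjusted p = 0.195) and without MGT+shScd1 replicate 1 (0.236) or 2 (0.187). The DESeq2 Wald test with all libraries did not call it either (0.163) and gave 0 rises and 0 falls for these 7 genes. The catalytic subunit Ppp1cb, picked with its value in view, did not pass at a log2 fold change of -0.14 (adjusted p = 0.0741).

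Of 9 sarcomeric heavy chains, on whose necks the striated light chains sit, 7 were tested and 6 rose, with a median log2 fold change of 0.79. Myh7b did not pass (-0.11, adjusted p = 0.893), and Myh4 and Myh13 had too few counts to be tested. The embryonic chain Myh3 had 4 and 3 counts in the control libraries, 67 and 91 in the knockdown libraries, and rose by 4.29 (SE 0.44), after passing the filter through the knockdown libraries alone. Myh2, a fast skeletal chain, rose by 1.48, and Myh6, the alpha chain of the atrium and of the adult mouse heart, rose by 1.31, from 202 and 231 CPM to 501 and 574 CPM. Myh6 is the usual heavy chain partner of Myl7 and Myl4 in the atrium, and it rose in the same libraries in which those light chains fell. Among 4 smooth muscle and non-muscle heavy chains, the non-muscle chain Myh10 rose by 0.99 and the smooth muscle chain Myh11 fell by 0.44, a call lost without MGT+shScd1 replicate 1 (adjusted p = 0.0744). Of 4 myosin chaperones, Unc45b, which folds striated muscle myosin, rose by 1.12 and the other 3 did not pass.

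For 4 light chains, the genes with the most similar pattern were found among 14311 genes of at least 1 CPM, by the root mean square difference in centred log2(CPM + 0.5) over the 4 libraries. For Myl7 these were Jph2 (0.00399), which encodes a junctional membrane protein of cardiomyocytes, Stxbp3 (0.00875) and Tmem119 (0.0106). For Myl4 they were Tbc1d4 (0.00766), Plppr3 (0.0098) and Txndc5 (0.0103). Myl9 was closest to Brix1 (0.00543), Gtf2e1 (0.00651) and Atp5l (0.00655). The nearest to Mylpf were Rd3 (0.087), Xirp2 (0.0945), the gene of a striated muscle actin-binding protein, and Shisa3 (0.118). The measure is not scaled to the size of a change or to counting noise, and Mylpf had 11 to 141 counts. Its distances can therefore not be set against those of Myl7, Myl4 and Myl9. With 4 libraries such nearness is a description of these libraries only.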

How the data were processed

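RNA-seq counts per gene were analysed for 4 libraries, with groups taken from the titles. Per the labels' protocols, TRIzol-extracted RNA went through ribosomal RNA depletion and a stranded library kit before paired-end sequencing, while the labels name the molecule polyA RNA. The authors deposited raw counts, exonic gene lengths and FPKM in 1 table, per the file headers. The deposited FPKM equalled the value from count, length and total count for 100% of entries within 0.005. Build mm10, SAMtools, featureCounts, Trimmomatic 0.36 and Subread 1.5.1 stand in the submitters' processing notes. The aligner was not given in the sources used here, nor were the strand setting, the handling of reads with several mapping places and the annotation release. The deposited coordinates did not match GRCm38, so positions come from GENCODE M21 (GRCm38).

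Genes were tested with edgeR 4.0.16 in R 4.3.3 (TMM, filterByExpr with minimum count 10 and minimum total 15, quasi-likelihood test, group as the single term, two-sided; SE is the absolute log2 fold change over the square root of F), which left 16234 genes, and the procedure was tested on simulated data. TMM factors were 0.989, 0.946, 1.03 and 1.03, and the common biological coefficient of variation was 0.067. To check for duplicate libraries, the replicates of each group were compared with counting noise, which they exceeded (chi-square per degree of freedom 47.8 in MGT+shNT and 2.96 in MGT+shScd1). This does not show that they are independent cultures. The value of MGT+shNT includes Rn18s-rs5, which took 0.199% and 3.32% of counts in its libraries and weighs heavily on it. It is thus no measure of the spread of most genes. Alternatives used DESeq2 1.42.0, limma 3.58.1 (voom, or log2(FPKM + 1) and log2(FPKM + 0.1)), DESeq2 size factors, no filter, the replicate number as a block, leaving out Rn18s-rs5, Lars2 and Malat1, and leaving out each library. The light chain genes and the lists were chosen with earlier results of these data known. All 10 light chains are named, and from each list at most 3 called genes per direction, those with the largest change, except where said or where a gene is not reported here.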

Additional observations from a re-analysis of the deposited data

How the results depend on the processing

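The count of genes called over all tested was 4763 (2122 rose, 2641 fell). It ranged from 2217 to 5331 with each library left out in turn (860 to 2386 rose, 1357 to 2945 fell). The DESeq2 Wald test gave 1369 rises. On log2(FPKM + 1) and log2(FPKM + 0.1), 1249 and 1266 genes fell and the median of all genes lay at 0.06 and 0.09. Of the light chains, 4 rose and 3 fell with all libraries, counting Myl2, which passed the filter on low counts through the MGT+shNT libraries alone. On both FPKM scales 1 fell, since Myl4 (-0.17 and -0.17) and Myl7 (-0.22 and -0.22) did not pass there. With a library left out, 2 to 6 rose and 0 to 3 fell. The 0 falls came without MGT+shScd1 replicate 2, by edgeR, where 3 were lower at an unadjusted p below 0.05. DESeq2 and limma-voom, run with all 4 libraries, each gave 4 rises and 3 falls.

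Over the libraries left out, log2 fold changes ranged from -4.88 to -1.49 for Myl2, -0.33 to -0.20 for Myl4, -0.37 to -0.25 for Myl7, 0.11 to 0.30 for Myl6, -0.0106 to 0.18 for Myl9, 0.0521 to 0.22 for Myl12a and 0.22 to 0.43 for Myl12b. The cause of the calls lost or gained was not tested. By plain counts the differences in share were 0.54 points for the fast skeletal pair, -6.31 for Myl4 and -7.54 for Myl7, and by CCDS length 0.53 for the fast skeletal pair and -7.64 for Myl7. Leaving out libraries gave -7.04 to -6.10 points for the striated share, -7.90 to -7.04 for Myl4, -7.20 to -6.25 for Myl7 and 0.68 to 0.73 for the fast skeletal pair.

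With the replicate number as a block, 4990 genes were called and the light chains again gave 4 rises and 3 falls. Deviations of same-numbered libraries had a correlation of -0.00787 across genes. This value cannot decide whether the numbers pair the samples, since a shared origin need not show in it.

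The main limits are 2 libraries per group, a low count for Myl2, Myl3, Mylpf and Myl1, gene lengths that sum all exons, and unstated treatment of strand and shared reads.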

Other observations

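The creatine kinase gene Ckm had 4 and 4 counts in MGT+shNT and 0 and 0 counts in MGT+shScd1, libraries in which Mylpf and Myl1 were higher. The fast troponin genes Tnnc2 and Tnni2 had at most 10 counts in any library.

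The log2 ratio of Myl1 to Mylpf counts was 1.18 and 2.71 in the MGT+shNT libraries and 0.898 and 0.475 in the MGT+shScd1 libraries. The M-band gene Myom1 overlaps Myl12a by 246 bases on the opposite strand. It had 208 and 253 CPM in MGT+shNT and 297 and 316 CPM in MGT+shScd1 and rose by 0.42 (adjusted p = 0.00157). Gm22000, on the opposite strand of Myl4, had 16 to 40 counts in any library.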
